A study of Hordeum vulgare subsp. vulgare with 8 samples.

Results

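In germinating barley embryos, 55 genes had a constitutive exon, an exon next to an alternative splice site, whose read depth at 48 h of imbibition was at most 0.5 of the depth at 24 h in at least 2 of 4 varieties and above the 24 h depth in none. The 55 genes, with 56 such exons, were 9.77% of the 563 genes that had an exon listed at both times in at least 2 varieties, and only those 563 could meet the rule. In all, 4634 genes were listed with alternative 3' splicing (A3S) or alternative 5' splicing (A5S). The genes were chosen by these depths, so the depths of the 56 exons are given as a description and without a test. The study asked how alternative splicing takes part in seed germination. Embryos of Bass, Harrington, Stirling and Baudin were separated from seeds that had imbibed at 21 °C in the dark, at 48 h and at 24 h, and poly(A) RNA of each variety and time was sequenced as 1 library. Each variety and time thus had 1 library and no replicate, and error is given as the spread over the 4 varieties, which differ genetically.

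During imbibition a dry embryo takes up water, uses RNA stored in the seed and starts to make new RNA, and the radicle then emerges as cells expand and later divide. In A3S the spliceosome joins an exon to a choice of acceptor sites, and in A5S it uses a choice of donor sites, so that an exon gains or loses a stretch at one end. The exon next to the site, listed as constitutive, is joined to both forms. In RNA from whole embryos, fewer cells that carry an RNA and less of that RNA per cell cannot be told apart.

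The lists held between 1711 and 2537 events per library, 15995 listings in all, of which 10712 were A3S and 5283 were A5S. Among all exons listed at both times, the median depth at 48 h was 0.765 of that at 24 h in Bass, against 0.928 for Harrington, 0.899 for Stirling and 0.892 for Baudin, so depth as deposited was lower at 48 h in all 4 varieties, and most so in Bass. Among the described genes listed, 4 matched embryo markers and 1 an aleurone marker, and no gene matched the words for starchy endosperm or chloroplast tissue, though a list of splice events can miss an RNA that is present. None of these markers was among the 55 genes.

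By the choice of the exons their ratios lie below those of all exons, and the values that follow only describe by how much. The mean log2 ratio of the 56 exons of depth at 48 h to depth at 24 h had a median of -1.27, or 2.41-fold lower, and ran from -2.27 to -0.79, while the median over all 625 exons comparable in at least 2 varieties was -0.20. The median depth of the 56 exons was 17.4 reads per base at 48 h and 41.3 at 24 h, and that of all comparable exons was 24.2 at 48 h and 26.5 at 24 h. In 52 of the 56 exons every 48 h depth was below every 24 h depth among the varieties listed at both times (28% of all comparable exons), and among the 24 exons comparable in all 4 varieties this held for 20 (23.7% of such exons). The rule used these depths and so favours such exons, and nothing is read from the counts.

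The varieties did not contribute equally. In Bass 38 of 45 comparable exons were at 0.5 or less, against 23.1% of all Bass exons. The counts were 29 of 45 in Harrington, against 12.5% of all its exons, 33 of 43 in Stirling, against 11.1%, and 32 of 43 in Baudin, against 12%. The median ratio of the 56 exons was lowest in Bass, at 0.375, and was 0.433 for Harrington, 0.441 for Stirling and 0.443 for Baudin. The depth was at 0.5 or less in 2 varieties for 39 exons, in 3 for 14 and in all 4 for 3. Without Bass the rule found 31 genes, of which 30 were among the 55, and with each ratio divided by the median ratio of its variety it found 32, all of them among the 55. On those divided ratios the 32 genes were 5.68% of the 563, and the opposite rule, depth at least doubled, found 41 genes, or 7.28%, in place of 28, or 4.97%, on the depths as deposited.

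**Figure D1:**
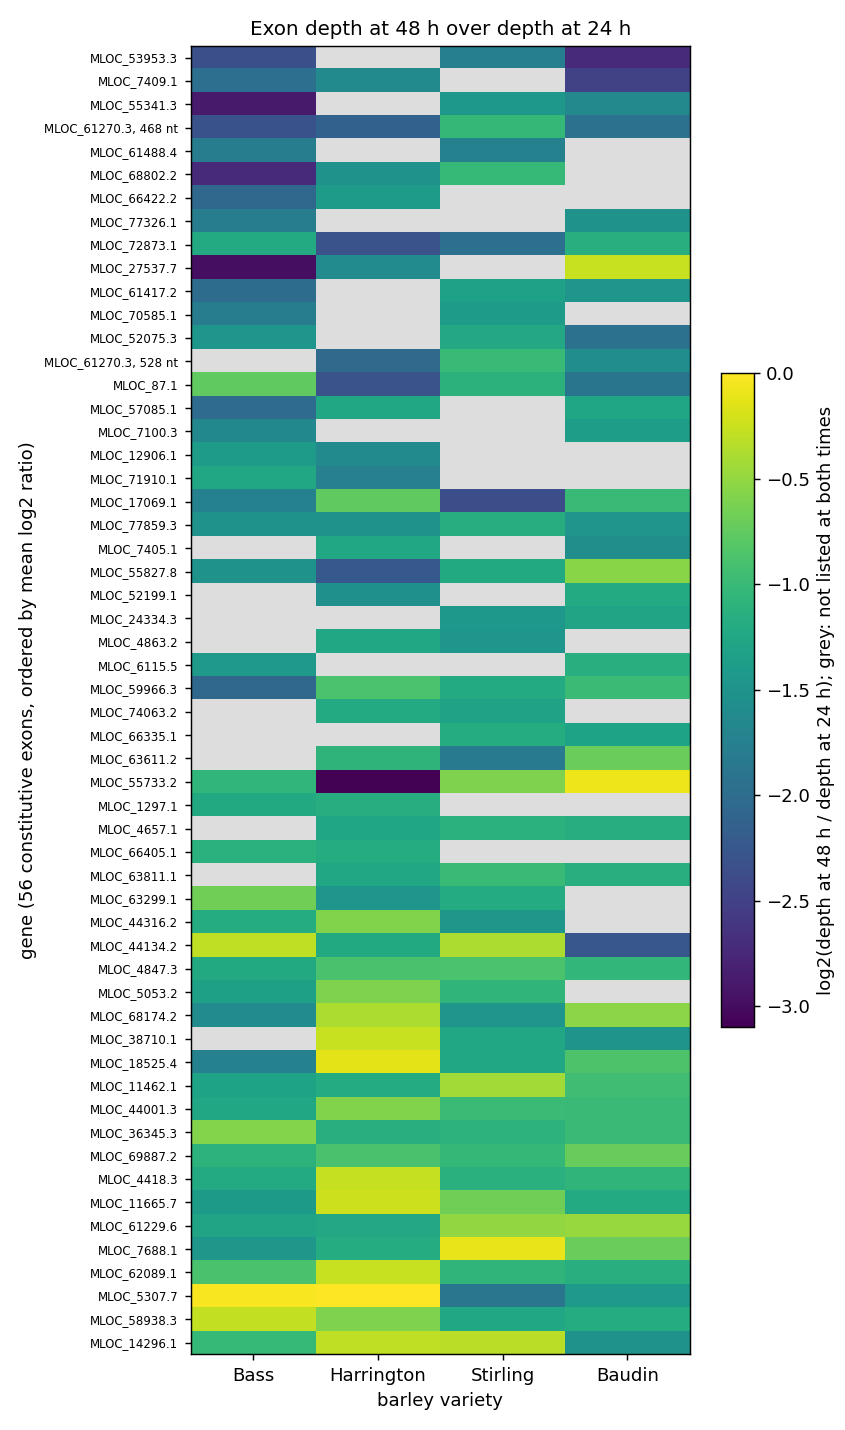
Each row is 1 of the 56 exons and each column a variety, and the colour gives log2 of the depth at 48 h over the depth at 24 h, with grey where the exon was not listed at both times. Ratios run from 0.118 to 0.996, 38 Bass exons are at 0.5 or less, and most rows have both dark and light cells.

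Of the 55 genes, 31 had a description, and genes for RNA-binding proteins were among the most deeply read. MLOC_5053.2, described as a far upstream element-binding protein, a KH-domain type of protein that binds single strands of nucleic acid, had a 1095-nt exon on linkage group LG04 (37992636 to 37993730). Its depth was 350.0 in Bass, 345 in Harrington and 305 in Stirling at 48 h, against 883, 521, 641 and 583 at 24 h in Bass, Harrington, Stirling and Baudin. Every 48 h library was below every 24 h library, and Bass had the deepest exon at 24 h. Stirling kept 47.5% of its 24 h depth, Bass 39.6% and Harrington 66.1%.

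MLOC_4418.3, a Quaking-like KH protein of a family that binds RNA, was read at a similar level. Its 171-nt exon had depths of 328, 416, 264 and 277 at 48 h in Bass, Harrington, Stirling and Baudin, against 757, 504, 580.3 and 582 at 24 h. The groups did not overlap, and Harrington kept 82.5% of its 24 h depth while the other varieties kept 43.4% to 47.7%. MLOC_62089.1, a polypyrimidine tract-binding protein, a family that represses or promotes splice sites by binding pyrimidine-rich RNA, had depths of 186, 175, 146 and 140.1 at 48 h, against 345, 209.9, 306 and 310.0 at 24 h. Harrington again stood highest as a share of its 24 h depth, at 83.5%.

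Components of the spliceosome had lower depths. MLOC_17069.1 was described as the large subunit A of U2AF, which binds the pyrimidine tract in front of the acceptor site. The depth of its 139-nt exon was 32.9, 23.7, 15.7 and 39.6 at 48 h in Bass, Harrington, Stirling and Baudin, against 109, 39.8, 80.4 and 79.6 at 24 h. Stirling and Bass showed the lowest shares of the 24 h depth, 19.6% and 30.1%, and the Baudin depth at 48 h almost met the Harrington depth at 24 h. MLOC_44001.3, a LUC7-related protein of a family found in the U1 particle that marks donor sites, had depths of 4.87, 9.40, 6.80 and 4.83 at 48 h, against 11.6, 14.1, 13.4 and 9.72 at 24 h.

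MLOC_7409.1, a small nuclear ribonucleoprotein-like protein, had the shortest exon, 24 nt on LG04 (59285795 to 59285818). Its depth was 2.08 in Bass, 2.00 in Harrington and 2.62 in Baudin at 48 h, against 8.12, 6.13, 5.18 and 14.8 at 24 h in Bass, Harrington, Stirling and Baudin. These 48 h depths stood on 26 to 34 read bases over 54.2% of the exon, and a depth of 2 was the lowest in the lists. MLOC_27537.7, described as regulator of nonsense transcripts 3A, a type of protein that acts in nonsense-mediated decay, had depths of 2.00 in Bass, 4.14 in Harrington and 9.0 in Baudin at 48 h, against 15.8, 12.6, 13.8 and 10.8 in the 4 varieties at 24 h. Bass kept 12.7% and Baudin 83.3% of the 24 h depth, a spread among varieties that gave a mean log2 ratio of -1.62 ± 1.36 (SD, n = 3).

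MLOC_18525.4, an RNA-binding protein, showed the same kind of split between varieties. Depths at 48 h were 25.2, 34.3, 28.0 and 31.4 in Bass, Harrington, Stirling and Baudin, against 84.4, 37.6, 66.7 and 57.1 at 24 h. Harrington kept 91.5% and Bass 29.9% of its 24 h depth. In these libraries the 48 h depths lay close together while the 24 h depths were spread, with Harrington lowest and Bass highest.

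Genes of the cell cycle, chromatin and transcription formed a second set. MLOC_55341.3, a retinoblastoma-related protein, the plant form of a repressor that holds cells before DNA synthesis, had a 136-nt exon on LG01 (57575387 to 57575522). Its depth was 5.29 in Bass, 8.37 in Stirling and 9.73 in Baudin at 48 h, against 38.7, 22.5, 22.7 and 30.4 at 24 h in Bass, Harrington, Stirling and Baudin. The highest 48 h depth was below the lowest 24 h depth, and the mean log2 ratio was -1.99 ± 0.77 (SD, n = 3). MLOC_66335.1, a cyclin-dependent kinase inhibitor, a class of proteins that slow the cycle, had depths of 27.5 in Stirling and 37.6 in Baudin at 48 h, against 63.2, 65.7, 62.4 and 92.6 in the 4 varieties at 24 h.

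MLOC_61270.3, a NAC domain protein of a large plant family of transcription factors, was the only gene with 2 constitutive exons that met the rule. The 468-nt exon on LG01 (105555589 to 105556056) had depths of 31.6, 38.9, 97.2 and 56.3 at 48 h in Bass, Harrington, Stirling and Baudin, against 158, 172, 199 and 217 at 24 h. All 4 ratios were at 0.5 or less, Stirling by the smallest margin at 49.0%, and the mean log2 ratio was -1.86 ± 0.57 (SD, n = 4). Its 528-nt exon had depths of 49.7, 98.7 and 67.2 in Harrington, Stirling and Baudin at 48 h, against 203, 199 and 201 at 24 h.

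In Bass the 528-nt exon was not listed as the constitutive exon at both times, but it was listed there as the annotated exon of another event. It had a depth of 48.3 at 48 h and 181 at 24 h in Bass, or 26.6%, a value the rule did not use. For MLOC_66422.2, a putative WD repeat protein, 2 more varieties gave such values, 9.81 at 48 h and 30.8 at 24 h in Stirling (31.9%) and 11.5 at 48 h and 22.7 at 24 h in Baudin (50.8%).

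The 78-nt exon of the histone deacetylase gene MLOC_70585.1, a plant HD2-type enzyme of the nucleus, had depths of 3.13 in Bass and 3.72 in Stirling at 48 h, against 10.8, 7.24, 9.81 and 8.41 in the 4 varieties at 24 h. A 100-nt exon of the same gene was read far more deeply and fell less. It had 222 in Bass and 354 in Stirling at 48 h, against 463 and 473 at 24 h. Its mean log2 ratio was -0.74, beside -1.60 for the 78-nt exon. MLOC_59966.3 was described as RXT3-like, after a yeast subunit of a histone deacetylase complex. Its depths of 25.8, 25.7, 27.0 and 30.3 at 48 h lay within a narrow band, against 108, 47.2, 62.2 and 60.3 at 24 h, where Bass was far above the others. MLOC_4657.1, a putative transcription factor, had depths of 3.81, 3.71 and 7.34 in Harrington, Stirling and Baudin at 48 h, against 9.26, 8.08 and 16.5 at 24 h, and 6.34 in Bass, which was listed at 24 h only.

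The other described genes held several enzymes. MLOC_53953.3, an auxiliary subunit of NatC, which adds acetyl groups to the start of new proteins, had the lowest mean ratio of the 56 exons. Its 237-nt exon on LG01 (47114277 to 47114513) had depths of 84.8, 74.0, 96.5 and 60.1 at 48 h in Bass, Harrington, Stirling and Baudin, against 429, 326 and 394 in Bass, Stirling and Baudin at 24 h. The 48 h libraries lay far below the 24 h libraries, a mean log2 ratio of -2.27 ± 0.48 (SD, n = 3) or 4.82-fold lower.

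MLOC_87.1, a class III peroxidase of the kind secreted into the cell wall, had depths of 161, 81.1, 124 and 136 at 48 h in Bass, Harrington, Stirling and Baudin, against 272, 403, 267 and 506 at 24 h. The groups did not overlap, but the order of the varieties turned, since Harrington was lowest at 48 h and above Bass and Stirling at 24 h. MLOC_12906.1, an expansin, a protein that loosens the wall during cell expansion, had depths of 52.4 in Bass and 67.6 in Harrington at 48 h, against 137, 207 and 165 in Bass, Harrington and Baudin at 24 h.

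MLOC_55733.2, an oxysterol-binding protein, a family that carries lipids between membranes, differed widely among varieties. Its depths were 7.14, 2.31, 10.1 and 12.1 at 48 h in Bass, Harrington, Stirling and Baudin, against 14.9, 19.6, 15.2 and 12.8 at 24 h. Harrington kept 11.8% and Baudin 94.7%, and the Harrington exon at 48 h was covered over 58.9% of its length. MLOC_63811.1, described as an NADH dehydrogenase, had depths of 63.4, 53.3 and 40.7 in Harrington, Stirling and Baudin at 48 h, against 151, 106 and 90.8 at 24 h.

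The other described genes with 1 exon in the rule included MLOC_4863.2, a GPI inositol-deacylase that remodels lipid anchors of proteins, at 4.81 in Harrington and 5.83 in Stirling at 48 h, against 13.6, 11.5, 16.2 and 9.93 in the 4 varieties at 24 h. MLOC_68174.2, an F-box protein, a type that selects proteins for ubiquitin ligases, had depths of 4.93, 7.93, 4.90 and 9.27 at 48 h, against 15.0, 10.3, 13.6 and 13.5 at 24 h. Bass and Stirling were low and Harrington and Baudin nearer to their 24 h depths. MLOC_7688.1, the acidic ribosomal protein P0 of the ribosome stalk, had depths of 2.00, 4.87, 3.46 and 7.32 at 48 h, against 5.49, 11.1, 3.72 and 11.9 at 24 h, so that the groups overlapped.

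**Figure D2:**
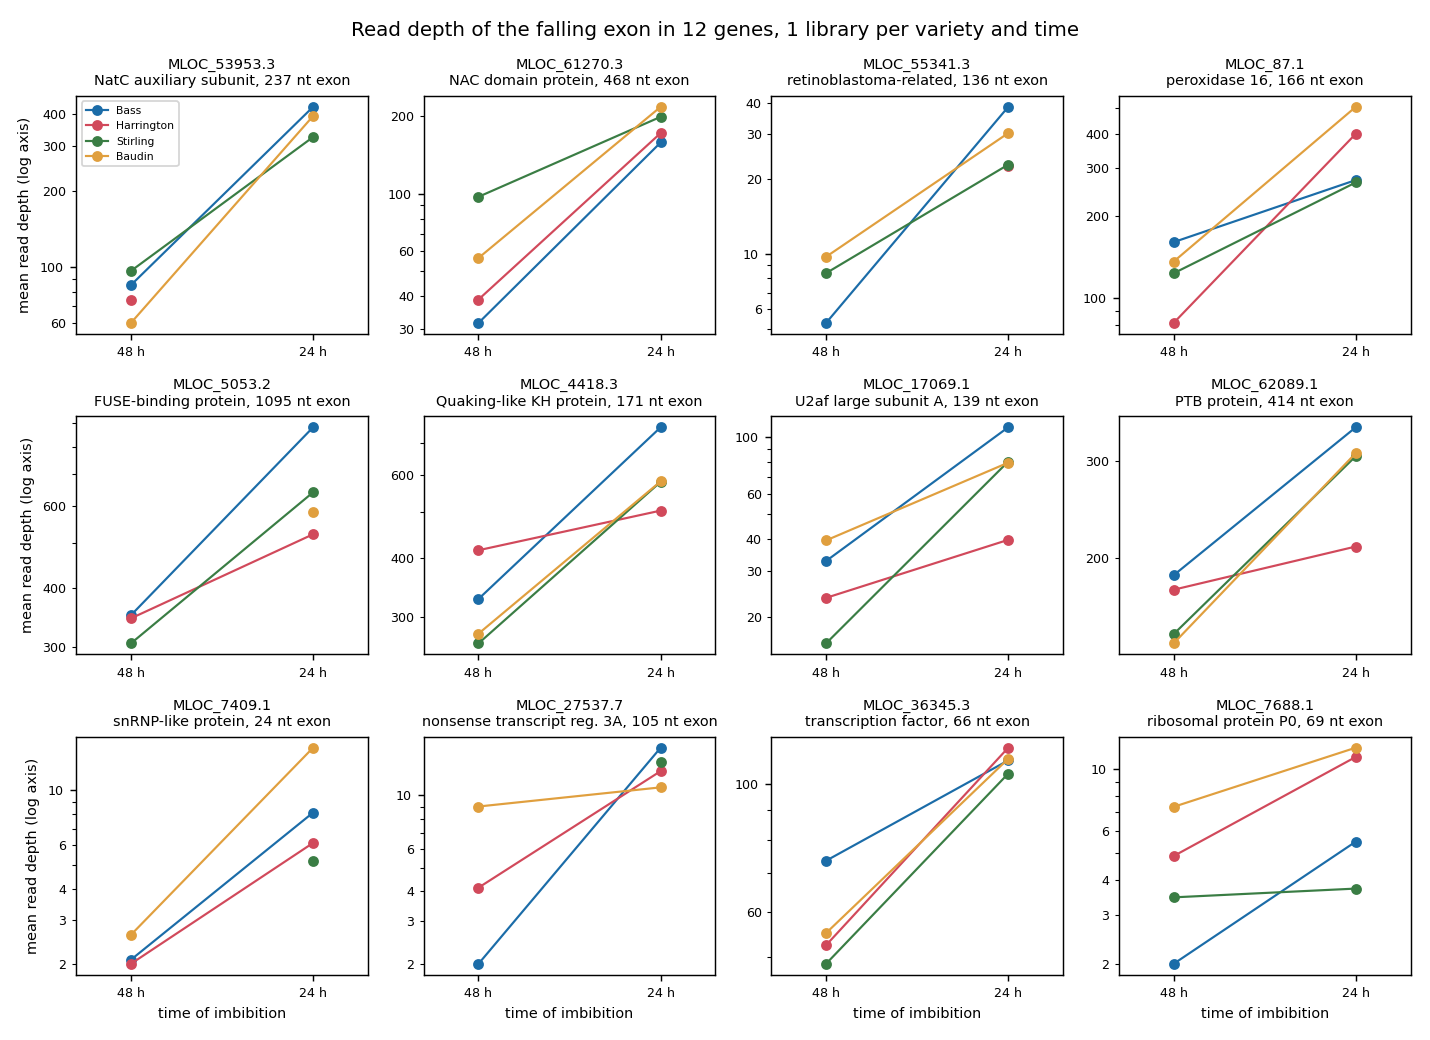
Each panel shows the depth of the falling exon of 1 gene (reads per base, log axis) at 48 h and at 24 h, with 1 point per library, coloured by variety, and lines joining the libraries of a variety listed at both times. MLOC_53953.3 is at most 96.5 in the 4 libraries at 48 h and at least 326 in the 3 at 24 h, and MLOC_7688.1 is the only panel of the 12 whose groups overlap.

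Among the 24 genes with no description, MLOC_72873.1 and MLOC_77859.3 were at 0.5 or less in all 4 varieties, as was MLOC_61270.3. MLOC_72873.1 had depths of 30.9, 19.2, 16.7 and 21.8 at 48 h in Bass, Harrington, Stirling and Baudin, against 71.5, 94.5, 65.3 and 48.2 at 24 h. MLOC_77859.3 had depths of 90.3, 61.9, 81.5 and 73.8 at 48 h, against 257, 176, 183 and 206 at 24 h. The varieties were close to each other in the second gene, with a mean log2 ratio of -1.42 ± 0.17 (SD, n = 4), and further apart in the first, at -1.66 ± 0.57 (SD, n = 4).

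MLOC_11462.1 was the deepest of the undescribed genes, with depths of 185, 344, 344 and 354 at 48 h, against 457, 787, 464 and 684 at 24 h. Bass was lowest at both times, and Stirling kept the largest share at 74.1%. MLOC_55827.8 had 7.76, 5.93, 6.80 and 10.7 at 48 h, against 22.3, 28.1, 15.8 and 15.7 at 24 h, and MLOC_44134.2 had 18.9, 13.8, 16.4 and 5.98 at 48 h, against 23.2, 32.2, 21.4 and 28.7 at 24 h. In MLOC_44134.2 Baudin and Harrington met the threshold, and Bass and Stirling kept 81.3% and 76.8%. MLOC_4847.3 was near 0.5 throughout, with 79.8, 112, 74.3 and 75.5 at 48 h, against 185, 207, 137 and 156 at 24 h.

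Close to the threshold, the second lowest variety stood at 49.7% of the 24 h depth in MLOC_44001.3 and 49.1% in MLOC_14296.1, which were inside, and at 50.3% in MLOC_66417.2 and 50.5% in MLOC_44460.2, which were outside. A further 5 genes had 2 varieties at 0.5 or less and another variety above 1.

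By words in the gene descriptions, 3 of 12 comparable genes for RNA processing were among the 55 (MLOC_7409.1, MLOC_17069.1 and MLOC_18525.4), with a median mean log2 ratio of -0.62 over the 12. The shares were 3 of 16 for chromatin and transcription, 1 of 15 for protein turnover and folding, 3 of 28 for carbon, lipid and energy metabolism and 1 of 19 for translation. The median log2 ratio of these lists was -0.14, 0.26, 0.04 and -0.02, beside -0.13 for all 244 comparable genes with a description, of which 31 were among the 55. None of the 4 comparable genes for seed maturation and storage, the 4 for hormone signalling or the 9 for transport was among them, and the median log2 ratio of the seed maturation genes was 1.06. The metabolism words caught the NatC subunit by the word for transferase. The words missed MLOC_4418.3, MLOC_62089.1, MLOC_5053.2, MLOC_44001.3 and MLOC_27537.7, which were placed with RNA-binding proteins above after their values were seen, and 20 of the 31 described genes were in no list.

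The 56 exons were between 24 and 1416 nt long, with a median of 128 nt, against 136 nt for all comparable exons. They lay on 9 of 14 linkage groups, with 17 genes on LG01, 12 on LG02 and 12 on LG04, and 29 genes were on the plus strand and 26 on the minus strand. Whether an exon was coding or untranslated is not given in the lists. Mean depth at 24 h was under 10 for 4 exons and 100 or more for 16.

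The other listed exons of the same genes, read in the same libraries, were mostly lower at 48 h too. Of 73 other exons in 54 genes, 70 had a mean log2 ratio below 0, with a median of -0.84, while the median over all comparable exons, constitutive and annotated together, was -0.19. For 18 of the 73 the rule had also seen a ratio as a constitutive exon and had not kept it, and 16 of these were below 0. The other 55 were compared only as annotated exons, which the rule did not use, and 54 of these were below 0, with a median of -0.90. The ratio was at -1 or less in 31 of the 73 and above -0.5 in 18. The matching shares over all comparable exons are not given. By their median of -0.19 most of those exons were below 0 too, so the counts alone do not set the 73 apart.

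In 23 genes the median of the other exons was at -1 or less. In MLOC_55341.3, the retinoblastoma-related gene, an 883-nt exon had depths of 10.8, 10.2 and 15.1 in Bass, Stirling and Baudin at 48 h, against 49.5, 33.9, 39.0 and 45.3 in the 4 varieties at 24 h, a mean log2 ratio of -1.90 ± 0.30 (SD, n = 3). In MLOC_53953.3 a 99-nt exon fell by 1.87 on the log2 scale (SD 0.47, n = 3). MLOC_68802.2, with a nuclear transport factor 2 domain, had a 329-nt exon with depths of 108, 103 and 90.6 in Bass, Harrington and Stirling at 48 h, against 674, 352, 376 and 359 in the 4 varieties at 24 h. The neighbours in these 3 genes were each at -1.87 or lower.

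In 10 genes every other listed exon, between 1 and 3 per gene, had a mean log2 ratio above -0.5. The exon that met the rule was chosen for its low ratio, so a smaller change in a neighbour follows in part from that choice. In MLOC_7688.1 the 69-nt exon that met the rule had depths of 2.00 to 7.32 at 48 h and 3.72 to 11.9 at 24 h. The neighbouring 258-nt exon had depths of 1541, 2206, 2002 and 2246 at 48 h in Bass, Harrington, Stirling and Baudin, against 1858, 1562, 1948 and 1646 at 24 h, with a mean log2 ratio of 0.18 ± 0.36 (SD, n = 4). In MLOC_36345.3, described as a transcription factor, the 66-nt exon had depths of 73.5, 52.4, 48.7 and 55 at 48 h, against 109.8, 116, 104 and 111 at 24 h.

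The other exons of MLOC_36345.3 differed among themselves. The 84-nt exon had 66.1, 62.6, 44.4 and 67.4 at 48 h in Bass, Harrington, Stirling and Baudin, against 29.8, 36.5, 30.9 and 46.5 at 24 h, a mean log2 ratio of 0.75 ± 0.29 (SD, n = 4). The 258-nt exon had a mean log2 ratio of 0.04 ± 0.12, and a 72-nt exon one of -0.43 ± 0.37 (SD, n = 4 each). The 66-nt exon was lower relative to the 84-nt exon and to the 258-nt exon in 4 of 4 varieties.

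In MLOC_7409.1 a 78-nt exon had depths of 112, 109.7 and 141 in Bass, Harrington and Baudin at 48 h, against 173, 147, 99.4 and 146 in the 4 varieties at 24 h, and so was read far more deeply than the 24-nt exon at both times. In MLOC_27537.7 a 478-nt exon had 34.2, 30.8, 30.2 and 36.1 in the 4 varieties at 48 h, against 27.6, 28.3, 33.5 and 46.7 at 24 h, with a mean log2 ratio of -0.02 ± 0.30 (SD, n = 4). The same was seen in MLOC_1297.1, described as the gamma-1 subunit of the AP-1 adaptor that sorts cargo at the Golgi, where a 108-nt exon had a mean log2 ratio of -0.18 and the 96-nt exon one of -1.20.

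**Figure D3:**
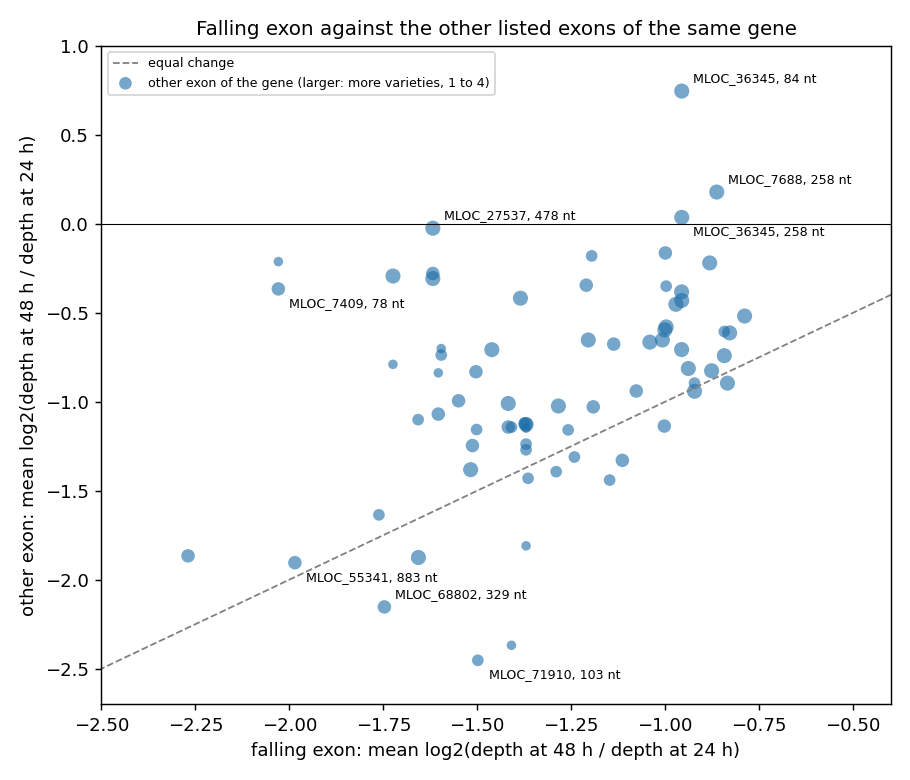
Each point is 1 of the 73 other exons, with the mean log2 ratio of the falling exon of its gene on the horizontal axis and its own on the vertical axis, larger where more varieties were comparable, and the dashed line marks equal change. The falling exon was chosen for its low ratio, which favours points above the line. Of the 73 points 70 are below 0, and the share below 0 over all comparable exons is not given. The 84-nt exon of MLOC_36345.3 is highest at 0.75.

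The rule needs an exon at both times, yet exons also left the lists. Over the 56 exons and 4 varieties, 176 of 224 combinations were listed at both times (78.6%), 7 at 48 h only (3.13%), 32 at 24 h only (14.3%) and 9 at neither. Of the 2276 combinations of the other comparable exons, 70.9% were listed at both times, 9.71% at 48 h only and 12.5% at 24 h only.

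The 55 genes had fewer A3S events at 48 h in each variety, as did the other 508 comparable genes. Bass had 49 at 48 h and 77 at 24 h, Harrington had 53 at 48 h and 62 at 24 h, Stirling had 53 at 48 h and 69 at 24 h, and Baudin had 53 at 48 h and 70 at 24 h. The mean was 52 ± 2 at 48 h and 69.5 ± 6.14 at 24 h (SD, n = 4 varieties), a difference of -17.5 ± 7.85. The counts at 48 h did not overlap those at 24 h.

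A5S events were also fewer in 4 of 4 varieties. Bass had 21 at 48 h and 34 at 24 h, Harrington had 18 at 48 h and 21 at 24 h, Stirling had 21 at 48 h and 31 at 24 h, and Baudin had 20 at 48 h and 38 at 24 h. The mean was 20 ± 1.41 at 48 h and 31 ± 7.26 at 24 h (SD, n = 4), a difference of -11 ± 6.27. The lowest 24 h count, in Harrington, equalled the highest 48 h counts. The other 508 comparable genes also had fewer events of both types in 4 of 4 varieties. Their mean differences were -39.75 ± 25.5 for A3S and -16.25 ± 15.1 for A5S (SD, n = 4). The summed listings at 48 h were 71.6% of those at 24 h in the 55 genes, 91.7% in the other 508 comparable genes and 82.1% in all other genes. A less deeply read gene gives fewer reads over its junctions, and the part of depth in these counts was not tested.

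Of the A3S events listed at 24 h, Bass kept 40 and lost 37 at 48 h, Harrington kept 44 and lost 18, Stirling kept 39 and lost 30, and Baudin kept 40 and lost 30. New A3S events at 48 h numbered 9, 9, 14 and 13 in the same varieties. For A5S, Bass kept 17 and lost 17, Harrington kept 13 and lost 8, Stirling kept 15 and lost 16, and Baudin kept 17 and lost 21, with 4, 5, 6 and 3 new events. Harrington lost the fewest events of both types, and it also had the fewest at 24 h. Over both types 56.7% ± 8.06 of the 24 h events were listed again at 48 h (SD, n = 4), against 62.9% ± 1.42 in the other comparable genes and 27.9% ± 2.25 in all other genes. The last group did not have to be listed at both times, so its share is not set by the same condition. Counted as the same gene with the same type, 76.8% were listed again.

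**Figure D4:**
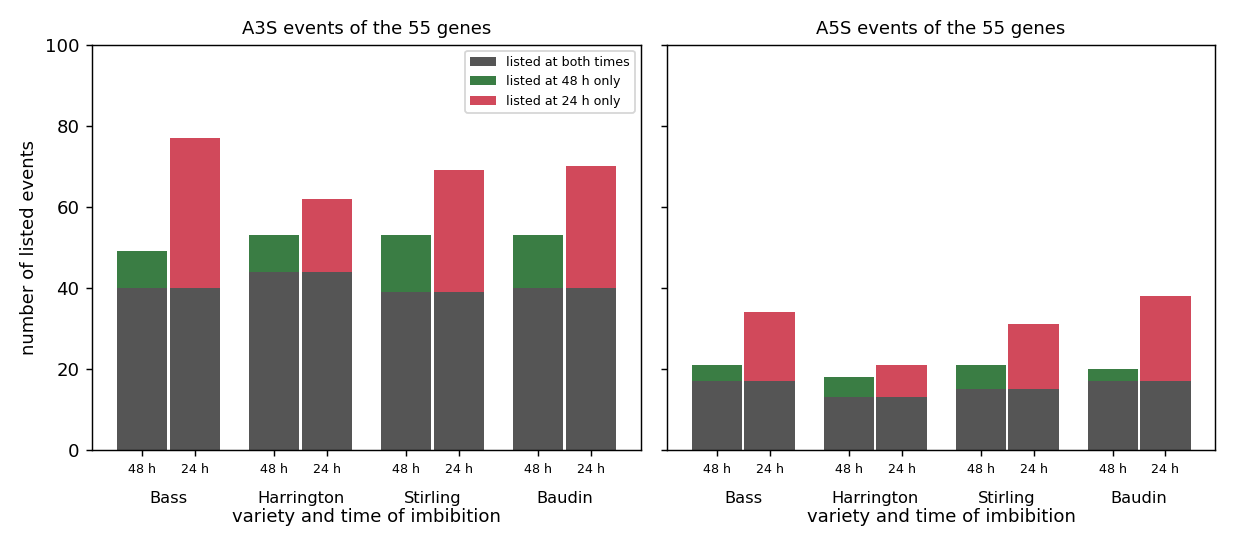
Bars give the number of listed A3S events (left panel) and A5S events (right panel) of the 55 genes at 48 h and 24 h in each variety, with events listed at both times in grey, at 48 h only in green and at 24 h only in red. The A3S bars are 49 to 53 high at 48 h and 62 to 77 at 24 h, and the red part is larger than the green part in each variety.

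By gene, 37 of the 55 had fewer listings at 48 h, 14 had as many and 4 had more. No count by gene is given for the other comparable genes, so nothing is read from these numbers. Their summed listings were also fewer, 2470 at 48 h and 2694 at 24 h. MLOC_5053.2 lost the most, with 4 listings at 48 h and 13 at 24 h over the 4 varieties. Its A5S event that lengthened the exon by 1698 nt was kept in 3 varieties, while an A3S event that lengthened the exon by 772 nt was listed in 4 varieties at 24 h and in 1 at 48 h. MLOC_4863.2 had 2 listings at 48 h and 10 at 24 h, and the 9-nt A3S event next to its falling exon was the only one left. MLOC_68802.2 had 3 at 48 h and 10 at 24 h, and its 6-nt A3S event was listed in all 4 varieties at 24 h and in none at 48 h, while the 3-nt event in the same exon was kept in 3.

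More listings at 48 h were found for MLOC_36345.3, with 20 at 48 h and 15 at 24 h, for MLOC_62089.1, with 13 at 48 h and 8 at 24 h, for MLOC_55827.8, with 7 at 48 h and 5 at 24 h, and for MLOC_1297.1, with 5 at 48 h and 3 at 24 h. In MLOC_36345.3 a 79-nt A3S event and a 6-nt A5S event were listed in all 8 libraries. In MLOC_62089.1 the 47-nt A5S event was listed in all 8, and A3S events of 510 and 513 nt appeared in Stirling and Baudin at 48 h only. So the exon depth of this splicing regulator was lower at 48 h while its list of events was longer. MLOC_24334.3, with no description, had the most distinct events, 13, of which 11 were seen at 48 h and 8 at 24 h.

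The 55 genes had 195 distinct events, 133 A3S and 62 A5S, with a median of 3 per gene against 2 in the other comparable genes. A3S was 68.2% of them, against 67.7%, and 51 genes had A3S, 32 had A5S and 28 had both. Events listed in all 8 libraries were 29 (14.9%, against 9.99%), events at 24 h only 68 (34.9%, against 24.9%) and events at 48 h only 28 (14.4%, against 18.7%). The sites were 3 nt apart in 23 events (11.8%, against 11.3%), the distance of tandem acceptors, and a multiple of 3 apart in 95 (48.7%, against 42.5%), which keeps the reading frame if the stretch is coding.

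The use of the sites was compared as a share. It is the read depth over the bases between both sites divided by the depth of the shared part of the exon. A higher share stands for more of the longer form, which is the alternative form in some events and the annotated form in others. The rule did not use this ratio. In the 216-nt A5S event of MLOC_18525.4 and the events of MLOC_66422.2 and MLOC_61270.3, however, the shared part lies in an exon that met the rule. Such exons were chosen for a low depth at 48 h, which favours a higher share. The share could be tested for 173 events listed in all 8 libraries, 29 of them in 26 of the 55 genes. With limma and variety as a block, 0 of the 29 and 0 of the 173 events passed an adjusted p of 0.05 (0% called), while 3 of the 29 and 21 of the 173 had an unadjusted p under 0.05. Without the block, 2 of the 29 and 3 of the 173 passed. The median log2 change of the share was -0.05 over the 29 events and -0.01 over the 173, and the share was lower at 48 h in 18 of the 29. These values mix events with a longer and events with a shorter alternative form, so they give no direction for the alternative site.

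The lowest adjusted p in the block test, 0.113, was shared by 2 undescribed genes, and both passed without the block. In MLOC_69887.2 the stretch of a 3-nt A3S event had 54.4%, 48.7%, 44.2% and 49.7% of the depth of the shared part at 48 h in Bass, Harrington, Stirling and Baudin, against 89.8%, 86.0%, 83.0% and 67.7% at 24 h. The groups did not overlap, and the log2 change was -0.72 (SE 0.13). The longer form of this event is the annotated one, so the lower share, if it follows the forms, stands for relatively more of the alternative form. In MLOC_11665.7 a 12-nt A3S event had 33.5%, 42.7%, 38.4% and 50.7% at 48 h, against 86.2%, 107.7%, 73.0% and 73.6% at 24 h, with a log2 change of -0.99 (SE 0.18). The longer form of that event is the alternative one. Over the alternatives the adjusted p of both events ran from 0.0297 to 0.428 in limma.

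The 27-nt event of MLOC_27537.7 had 27.0%, 15.1%, 22.6% and 22.8% in the 4 varieties at 48 h, against 46.8%, 27.1%, 40.8% and 22.8% at 24 h, with a log2 change of -0.59 and an adjusted p of 0.294 in limma. Baudin was level and the other varieties were lower. The longer form of this event is the annotated one. The 39-nt A5S event of MLOC_66422.2 and the 3-nt event of MLOC_68174.2 had log2 changes of 0.30 and 0.81, with adjusted p of 0.447 and 0.468 in limma. The MLOC_68174.2 event had 96.4%, 66.3%, 203.6% and 50.8% in the 4 varieties at 48 h, against 51.2%, 53.8%, 50.7% and 47.2% at 24 h. Its highest value, in Stirling at 48 h, stood on a shared depth of 7.53. The longer form is the annotated one in MLOC_66422.2 and the alternative one in MLOC_68174.2. In MLOC_61270.3, where the depth was at 0.5 or less in all 4 varieties, the stretch of the 212-nt event averaged 21.9% at 48 h and 22.4% at 24 h.

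**Figure D5:**
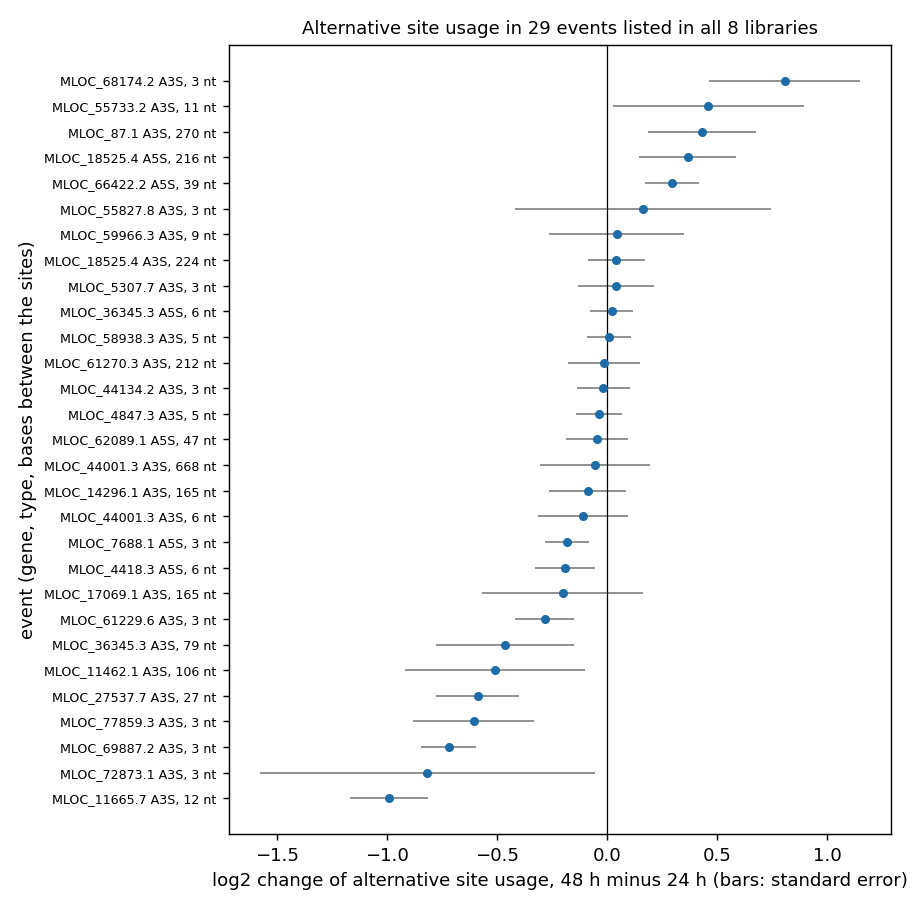
Points give the log2 change of the share, stretch depth over shared depth, 48 h minus 24 h, for the 29 events listed in all 8 libraries. The events belong to the 55 genes. The axis names it alternative site usage, but the longer form is the annotated one in some events. Bars give the standard error from limma. MLOC_11665.7 is lowest at -0.99 and MLOC_68174.2 highest at 0.81, and 18 of 29 points are below 0.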

How the data were processed

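Poly(A) RNA of embryos was sequenced by the authors as paired ends on a HiSeq2000, aligned to the Morex genome (IBSC) with SOAPaligner, and searched for splice junctions with SOAPsplice. The deposited lists give, for each event, a constitutive, an annotated and an alternative exon, each with start, end, read depth and share of bases covered. The deposited depth values are not scaled for library size, and reads per junction were not used here. The last value, which the deposited note calls a minimum depth, ran from 0.5 to 1 and gave whole numbers of covered bases within 0.01 in 100% of partly covered annotated exons, so it was read as the share covered. Depth was then a mean over covered bases for the constitutive and annotated exons and over the full length for the alternative exon. A mark without reference on 81 records, 3 of them in the 55 genes, was dropped and the values kept. The authors' column note was read for the meaning of the columns and holds no values that were used here.

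Exons were matched by gene and coordinates with Python 3.11.15 and pandas 2.3.3, and depth at 48 h was divided by depth at 24 h within a variety. Differences have the SD over varieties. For site usage, limma 3.58.1 under R 4.3.3 was fitted to log2 of stretch depth plus 0.5 over shared depth plus 0.5, with variety as a block, because each variety gave a library at both times, and Benjamini-Hochberg adjustment over all events tested. Stretch depth came out below 0 in 83 of 1384 values, 1 of 232 in the 55 genes, and was set to 0. The correlation of depth deviations between the libraries of a variety was 0.0239 to 0.560 over 177 exons. The p-values of the block test weigh the change from 24 h to 48 h against its spread over the varieties. No replicate within a variety was available. Both steps were tested on simulated data.

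The genes and the words of the gene lists were chosen with earlier results of these data known. Named genes were the 10 lowest mean log2 ratios among exons comparable in 4 varieties, the 5 deepest at 24 h, up to 4 per word list, the 5 lowest adjusted p in the usage test, the exons nearest the threshold (2 on either side) and the 3 genes with most events; MLOC_55341.3, MLOC_66335.1, MLOC_12906.1, MLOC_62089.1, MLOC_1297.1, MLOC_68802.2 and MLOC_27537.7 were added after their values were seen. Gene descriptions came from the study's supplementary tables. The alternatives were ratios divided by the median of the variety, at least 3 varieties, the annotated exon, a depth of at least 10, no upper limit, genes in place of events, 1 added in place of 0.5, no block, the longer over the shorter form, at least 20 bases between sites, and each variety left out in turn. Gene IDs were not matched to a genome here, so no sequence is given.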

Additional observations from a re-analysis of the deposited data

Results flagged for a closer look

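Among 28 groups of 4 values searched for a value far from the other 3, 3 stood apart. Most groups were depth ratios that the rule itself had chosen, and the rest were event counts. The usual rate of about 1 in 20 by chance thus does not apply, and nothing is read from the count. The log2 depth ratio of MLOC_4418.3, the Quaking-like gene, was -0.28 in Harrington, above the other varieties. That of MLOC_77859.3 was -1.17 in Stirling, above the other varieties, although its depth there was also at 0.5 or less. Bass had 49 A3S events of the 55 genes at 48 h, below the 53 of each other variety.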

How the results depend on the processing

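The 55 genes became 32 with ratios divided by the median of the variety and 16 with at least 3 varieties at 0.5 or less. They were 31 to 40 with 1 variety left out, the lowest without Bass. The difference in A3S events, -17.5, was -6 when genes were counted in place of events and -20.3 to -14 with a variety left out, and the A5S difference was -13.7 to -8.67. The share of 24 h events listed again, 56.7%, was 76.8% by gene and type and 52.7% to 58.5% with a variety left out. Without the replicate block 2 events of the 55 genes passed the usage test, and 0 passed with any variety left out. Over all 173 events, 3 passed without the block and 0 with it. With the block and Stirling left out, 1 event passed. No other result came from a test of 48 h against 24 h. The mean log2 ratio of MLOC_7688.1 was 0.18 on its annotated exon, the only reversal among 166 alternatives for 30 named genes. Of these alternatives 145 moved by less than the spread and 20 by more. Leaving a variety out could not reverse a mean, since the rule allows no ratio above 1. Only 1 annotated exon per gene was used. For MLOC_36345.3 it was the 72-nt exon at -0.43, not the 84-nt exon at 0.75. Nothing is thus read from the count of reversals. With the annotated exon in place of the constitutive exon the rule found 54 genes, of which 17 were among the 55. A depth of at least 10 at 24 h left 47 of the 55 genes. The cause of these differences was not tested.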

Other observations

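At 24 h Bass was the deepest variety in 20 of the 43 exons of the 55 genes listed in all 4 varieties (46.5%, against 35.7% of 280 other comparable exons). Harrington was the shallowest in 20 of 43 (46.5%, against 42.5%). At 48 h Bass and Baudin were each deepest in 9 of 27 (33.3%, against 21.5% and 28.5% of 256 other exons). The rule used these depths and favours exons that are deep at 24 h, so nothing is read from the counts. Kept and lost events were also set side by side by their depth at 24 h, which is not their depth at 48 h. The part of depth in the loss was not tested. The median 24 h depth of the annotated exon was 68.6 for kept and 85.8 for lost events in Bass, 63.7 for kept and 43.9 for lost events in Harrington, 71.8 for kept and 50.9 for lost events in Stirling, and 57.1 for kept and 98.3 for lost events in Baudin, so lost events were shallower in 2 varieties and deeper in 2.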
